A study of Mus musculus with 8 samples.

Results

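The genes described here are 10 transcription factors of T cell exhaustion, namely Tox, Tox2, Nr4a1, Nr4a2, Nr4a3, Batf, Batf3, Irf4, Nfatc1 and Nfatc2. They were taken by symbol from the array rows that carry exactly 1 gene symbol. Each of the 10 had 1 such row, so they are 10 of the 22180 genes measured. The samples were PD-1hi effector CD8 T cells sorted from the spleens of female C57BL/6 mice, on 8 arrays. In 4 samples the mice had been given an antibody that blocks the IL-10 receptor (anti-IL-10R), and in the other 4 an isotype control antibody. All mice, the isotype group included, carried transplanted leukaemia cells from Eµ-TCL1 mice, a model of chronic lymphocytic leukaemia (CLL) whose transgene is active in B cells. Whether the sorted T cells came from the host or with the transplant was not tested. Treatment began 3 weeks after transplantation and lasted 2 weeks, and the cells were taken at 5 weeks. The sort took lineage-negative cells with TCR beta and CD8 on their surface, high PD-1, little CD127 and at least intermediate CD44. Ages, the antibody clone and whether each array came from a separate animal are not given in the labels, so every p-value rests on the spread of these arrays, which may be technical in part.

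T cells that meet their antigen for long periods enter a state called exhaustion, in which they keep inhibitory receptors such as PD-1 on the surface and make less cytokine. Calcium signals from the T cell receptor activate the phosphatase calcineurin, which sends NFAT proteins into the nucleus. When NFAT acts without enough of its AP-1 partner, it turns on a programme that includes the NR4A nuclear receptors and TOX. BATF and IRF4 bind DNA together and shape the response of stimulated T cells, and BATF can form AP-1 dimers with JUN proteins.

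No member of the group passed the threshold after IL-10R blockade, but the members did not all lie in the same direction. Nr4a2 was the nearest to it, at 1.42-fold the isotype level (95% CI 1.18 to 1.71, limma adjusted p = 0.0555). Tox, Tox2, Nr4a2 and Nfatc1 each had 4 anti-IL-10R values above the highest isotype value. Nr4a1, Nr4a3 and Nfatc2 had lower means in the anti-IL-10R group, with groups that overlapped. The threshold was a limma adjusted p below 0.05 over all 12019 tested genes, of which 2.53% passed, 1.23% higher and 1.3% lower. Of all tested genes, 15.3% had groups that did not overlap, 9.32% with the anti-IL-10R group higher and 5.99% with it lower. Without adjustment, Nr4a2, Nfatc1 and Tox had p below 0.05, as 20.0% of all tested genes did. Batf3 was just below that value too, but it entered the test only through its anti-IL-10R values.

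Isotype replicate 1 stands apart from the other arrays and several values below rest on it. Over the tested genes its correlation with the other arrays was 0.915 to 0.929, whereas the other 7 arrays correlated at 0.962 to 0.986 among themselves (Pearson's r, taken over genes and therefore without independent points). It was the lowest isotype array for 6 of the 10 genes, namely Tox, Nr4a1, Nr4a2, Nr4a3, Batf and Batf3. Foxp3, which marks regulatory T cells, read 7.97 on it, against 5.46, 5.95 and 5.62 on isotype replicates 2, 3 and 4 and 5.08 to 5.64 on the anti-IL-10R arrays. It was picked after its values were seen, and the CD4 T cell genes Zbtb7b, Cd40lg and Cd4 read 6.08, 4.27 and 5.46 on this array, against 5.85 to 6.19, 4.19 to 4.26 and 4.88 to 5.30 on the other isotype arrays. Without this array 9.25% of all tested genes passed the threshold, 3.35% higher and 5.9% lower, and 2 of the 10 genes did so, Nr4a2 higher and Nr4a1 lower. Results are therefore given with and without it, and its part in them was not tested other than by leaving it out.

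**Figure D1:**
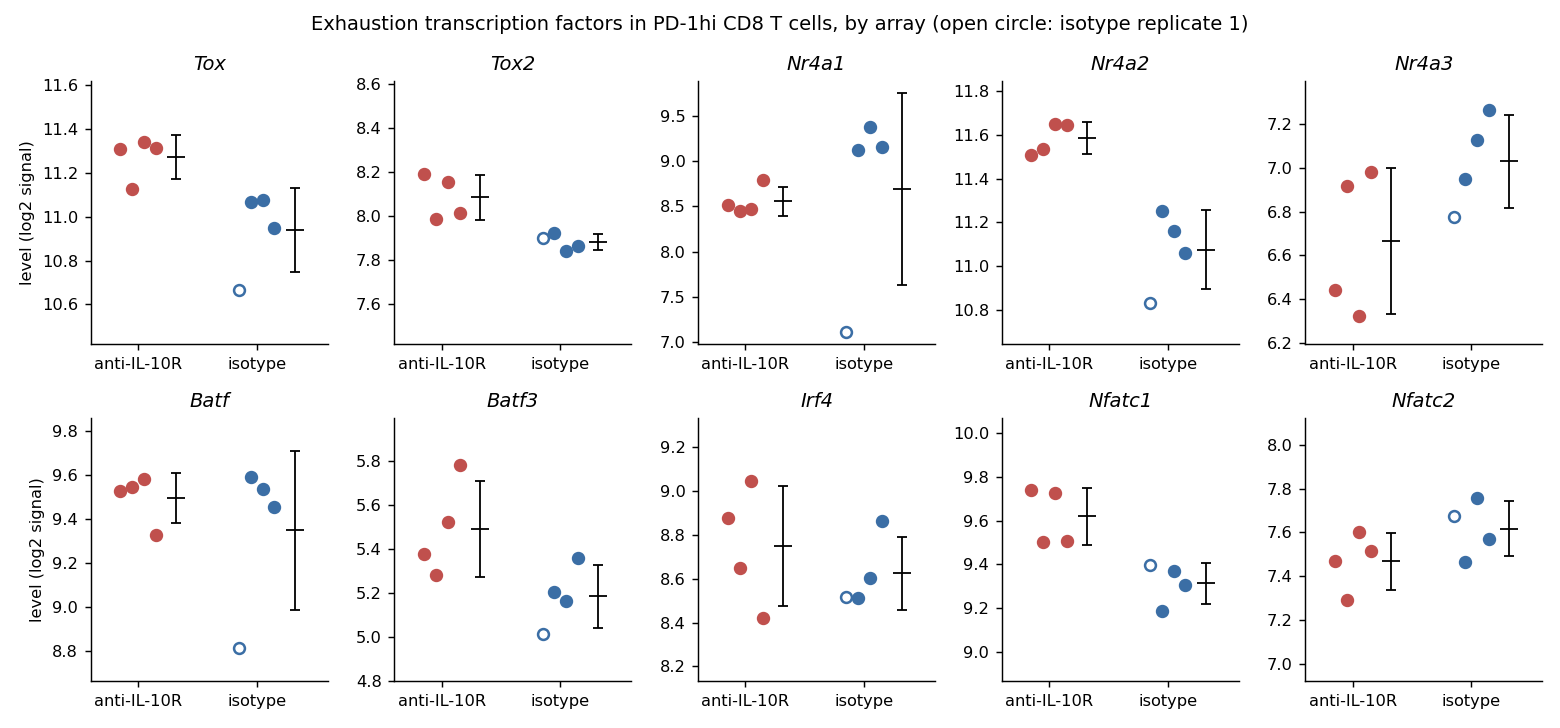
Log2 signal of each of the 10 genes on every array, with anti-IL-10R arrays in red at the left and isotype arrays in blue at the right of each panel, replicates 1 to 4 from left to right; bars are the mean and SD of 4 arrays, the open circle is isotype replicate 1, and each panel has its own vertical axis. The groups are apart for Tox, Tox2, Nr4a2 and Nfatc1, and isotype replicate 1 at 7.11 lies far below the other isotype arrays for Nr4a1.

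The NR4A receptors are shown first with their promoters, because the mean differences of the 3 genes were not all in the same direction. None of the 3 passed the threshold with all arrays, and the sign for Nr4a1 depended on single arrays. Each sequence is the RefSeq window of GRCm38.p6 from 250 bases before to 50 bases after the gene's start, read 5′ to 3′ on the gene's strand. Capitals mark TGACG on either strand (written CGTCA where it lies on the opposite strand), the half-site bound by CREB, a factor through which calcium and cyclic AMP signals raise early response genes. The windows lie at chr2:57123954-57124253 on the minus strand for Nr4a2, at chr15:101266596-101266895 on the plus strand for Nr4a1 and at chr4:48045055-48045354 on the plus strand for Nr4a3.
Nr4a2: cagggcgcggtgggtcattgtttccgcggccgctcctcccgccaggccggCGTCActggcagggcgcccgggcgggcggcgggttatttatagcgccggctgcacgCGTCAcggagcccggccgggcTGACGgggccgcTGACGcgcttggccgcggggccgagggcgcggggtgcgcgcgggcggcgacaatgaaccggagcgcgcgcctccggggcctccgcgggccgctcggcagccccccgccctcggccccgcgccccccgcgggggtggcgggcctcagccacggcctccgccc
Nr4a1: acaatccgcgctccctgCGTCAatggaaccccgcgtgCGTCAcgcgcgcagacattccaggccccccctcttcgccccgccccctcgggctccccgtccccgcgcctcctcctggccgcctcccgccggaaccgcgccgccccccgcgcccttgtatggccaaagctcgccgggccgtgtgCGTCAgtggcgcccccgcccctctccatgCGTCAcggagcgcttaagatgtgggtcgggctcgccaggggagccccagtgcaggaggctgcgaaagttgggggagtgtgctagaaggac
Nr4a3: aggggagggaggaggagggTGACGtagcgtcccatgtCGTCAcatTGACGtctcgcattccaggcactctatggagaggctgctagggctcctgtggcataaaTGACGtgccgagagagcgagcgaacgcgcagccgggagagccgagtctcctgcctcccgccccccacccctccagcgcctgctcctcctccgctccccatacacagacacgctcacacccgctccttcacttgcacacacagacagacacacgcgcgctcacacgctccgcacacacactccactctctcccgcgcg
Each of the 3 windows holds 4 such half-sites, a number that 0.231% of all 32851 RefSeq promoter windows reach or exceed, while 20.8% hold at least 1. In Nr4a1 all 4 lie on the opposite strand, in Nr4a2 there are 2 on each strand, and in Nr4a3 there are 3 on the gene's strand and 1 on the other. The NFAT core GGAAA is in the Nr4a2 window and not in those of Nr4a1 and Nr4a3, and 61.3% of all windows hold it. These are matches of letters chosen after looking at 13 motifs, and no binding was measured.

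Nr4a2, an orphan nuclear receptor that acts as a transcription factor without a known natural ligand, had the largest difference of the 10. Its log2 level was 11.51, 11.54, 11.65 and 11.65 on the anti-IL-10R arrays, against 10.83, 11.25, 11.16 and 11.06 on the isotype arrays. All 4 treated values lay above all 4 isotype values, and isotype replicate 1 was the lowest. Nr4a2 averaged 11.59 ± 0.07 after blockade and 11.08 ± 0.18 with isotype (SD, n = 4 each). The difference was 0.51 ± 0.12 (SE), and 94.1% of all tested genes had a difference no greater. Without isotype replicate 1 the difference was 0.43 ± 0.10 and passed the threshold (adjusted p = 0.0270). With each other array left out it lay between 0.49 and 0.57 and did not pass.

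Nr4a1, also called NUR77 and widely used as a reporter of T cell receptor signalling, was lower than in most isotype arrays. Its log2 level was 8.51, 8.45, 8.47 and 8.79 on the anti-IL-10R arrays, against 7.11, 9.12, 9.38 and 9.16 on the isotype arrays. The 4 treated values fell in the gap between isotype replicate 1 and the 3 other isotype arrays. With all arrays Nr4a1 averaged 8.56 ± 0.16 after blockade and 8.69 ± 1.06 with isotype (SD, n = 4 each), and the difference of −0.14 ± 0.43 (SE) had a 95% CI of −1.11 to 0.84 (adjusted p = 0.898). With that array left out the isotype mean was 9.22 ± 0.14 (SD, n = 3), and Nr4a1 fell by 0.67 ± 0.12 (SE, limma adjusted p = 0.0128). There the groups did not overlap, which held for 25.5% of all tested genes, 14.2% with the anti-IL-10R group lower and 11.3% with it higher. Leaving out any of the 3 other isotype arrays instead gave differences of 0.0068, 0.094 and 0.020, so with isotype replicate 1 kept, the sign turned when any 1 of these 3 was left out.

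Nr4a3, also known as NOR1, was dimmer, and its anti-IL-10R arrays were spread widely. It read 6.44, 6.92, 6.33 and 6.98 on the anti-IL-10R arrays, against 6.78, 6.95, 7.13 and 7.26 on the isotype arrays. Replicates 1 and 3 of the treated group lay below every isotype array, while replicates 2 and 4 lay among them. Nr4a3 averaged 6.67 ± 0.33 after blockade and 7.03 ± 0.21 with isotype (SD, n = 4 each), a difference of −0.36 ± 0.18 (SE, adjusted p = 0.298). Leaving out isotype replicate 1 gave −0.45 ± 0.17 (adjusted p = 0.134). Of all tested genes, 8.42% had a difference as low or lower.

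Whether the NR4A genes changed unequally was asked with the within-array difference between 2 genes, compared between the groups by a two-sided exact permutation test over arrays. This was done for 6 pairs of relatives chosen after the values were seen, and adjusted over those 6. Nr4a3 changed by 0.87 less than Nr4a2 on the log2 scale, with all 4 anti-IL-10R arrays outside the isotype range (exact p = 0.0286, the smallest that 4 against 4 arrays allow, adjusted p = 0.0857). The change of Nr4a1 was lower than that of Nr4a2 by 0.64 with all arrays (exact p = 0.171, adjusted p = 0.343) and by 1.09 without isotype replicate 1 (exact p = 0.0571, the smallest that 4 against 3 arrays allow, adjusted p = 0.114). Nr4a1 and Nr4a3 differed in their change by 0.23 (adjusted p = 0.886). None of these passed after adjustment, but these tests had little or no room to pass. Without isotype replicate 1 no pair could pass, since the smallest possible exact p of 0.0571 is itself above the threshold. With all arrays a pair could pass only if most of the 6 pairs reached the smallest possible p. The tests therefore cannot decide whether the genes changed unequally.

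Tox encodes a DNA-binding protein of the high mobility group box type that is needed for exhausted T cells to form and persist in chronic infection and tumours. Its log2 level was 11.31, 11.13, 11.34 and 11.31 on the anti-IL-10R arrays, against 10.67, 11.07, 11.08 and 10.95 on the isotype arrays. The groups were apart, but the lowest treated array, replicate 2, lay only just above the highest isotype array. Tox averaged 11.27 ± 0.10 after blockade and 10.94 ± 0.19 with isotype (SD, n = 4 each), and Tox was at 1.26-fold the isotype level (95% CI 1.04 to 1.52, limma adjusted p = 0.174). On the log2 scale the difference was 0.33 ± 0.12 (SE), and 0.24 ± 0.10 without isotype replicate 1 (adjusted p = 0.143).

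Tox2, a relative of Tox that acts with it in exhausted CD8 T cells, was higher by a smaller amount. It read 8.19, 7.98, 8.15 and 8.01 on the anti-IL-10R arrays, against 7.90, 7.92, 7.84 and 7.86 on the isotype arrays. The isotype values were close together and all below the treated ones. The difference was 0.20 ± 0.10 (SE, adjusted p = 0.290) and hardly moved without isotype replicate 1 (0.21 ± 0.10). Its change and that of Tox differed by −0.13, Tox2 minus Tox (exact permutation p = 0.343, adjusted p = 0.514).

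Nfatc1 encodes NFAT2, which calcineurin activates and whose gene is itself raised by T cell receptor signals; NFAT2 binds the gene of PD-1. It read 9.74, 9.50, 9.72 and 9.51 on the anti-IL-10R arrays, against 9.40, 9.19, 9.37 and 9.30 on the isotype arrays. Isotype replicate 1 was the highest of its group here, unlike for Nr4a2 and Tox. Nfatc1 averaged 9.62 ± 0.13 after blockade and 9.31 ± 0.09 with isotype (SD, n = 4 each), a difference of 0.30 ± 0.11 (SE, limma adjusted p = 0.165). The fit without isotype replicate 1 gave 0.33 ± 0.11 (adjusted p = 0.0825).

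Nfatc2 encodes NFAT1, the form that resting T cells already hold in the cytoplasm. It read 7.47, 7.29, 7.60 and 7.51 on the anti-IL-10R arrays, against 7.68, 7.47, 7.76 and 7.57 on the isotype arrays. The groups overlapped, and the difference was −0.15 ± 0.11 (SE, adjusted p = 0.512). The change of Nfatc2 was lower than that of Nfatc1 by 0.45, with all 4 anti-IL-10R arrays outside the isotype range (exact permutation p = 0.0286, adjusted p = 0.0857). It was lower by 0.46 without isotype replicate 1 (exact p = 0.0571, adjusted p = 0.114).

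The differences of the BATF and IRF4 genes were within the spread of the arrays. Batf read 9.53, 9.55, 9.58 and 9.33 on the anti-IL-10R arrays, against 8.81, 9.59, 9.53 and 9.46 on the isotype arrays. Apart from isotype replicate 1 the values of both groups lay together, and the difference of 0.15 ± 0.17 (SE, adjusted p = 0.686) became −0.032 ± 0.10 without that array, with a 95% CI of −0.26 to 0.19. Irf4 read 8.88, 8.65, 9.05 and 8.42 on the anti-IL-10R arrays, against 8.52, 8.51, 8.60 and 8.86 on the isotype arrays. The treated arrays held both the lowest and the highest Irf4 value, and the difference was 0.13 ± 0.15 (SE, 95% CI −0.22 to 0.47, limma adjusted p = 0.697). Without isotype replicate 1 it was 0.089, and without anti-IL-10R replicate 3 it was 0.026.

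Batf3, known as the factor that cross-presenting dendritic cells need and also expressed in stimulated T cells, was near the lower limit of the tested genes. It read 5.38, 5.28, 5.52 and 5.78 on the anti-IL-10R arrays, against 5.01, 5.21, 5.16 and 5.36 on the isotype arrays. The difference was 0.31 ± 0.14 (SE, adjusted p = 0.250), or 0.25 without isotype replicate 1, and the groups overlapped. Its mean over all arrays of 5.34 was just above the limit of 5.24 while its isotype mean of 5.19 was below it, so Batf3 was tested only because of its anti-IL-10R values. The dendritic cell genes Xcr1, Flt3 and Zbtb46 had means of 5.27, 4.83 and 5.53 on the anti-IL-10R arrays, against 5.41, 4.97 and 5.15 on the isotype arrays.

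**Figure D2:**
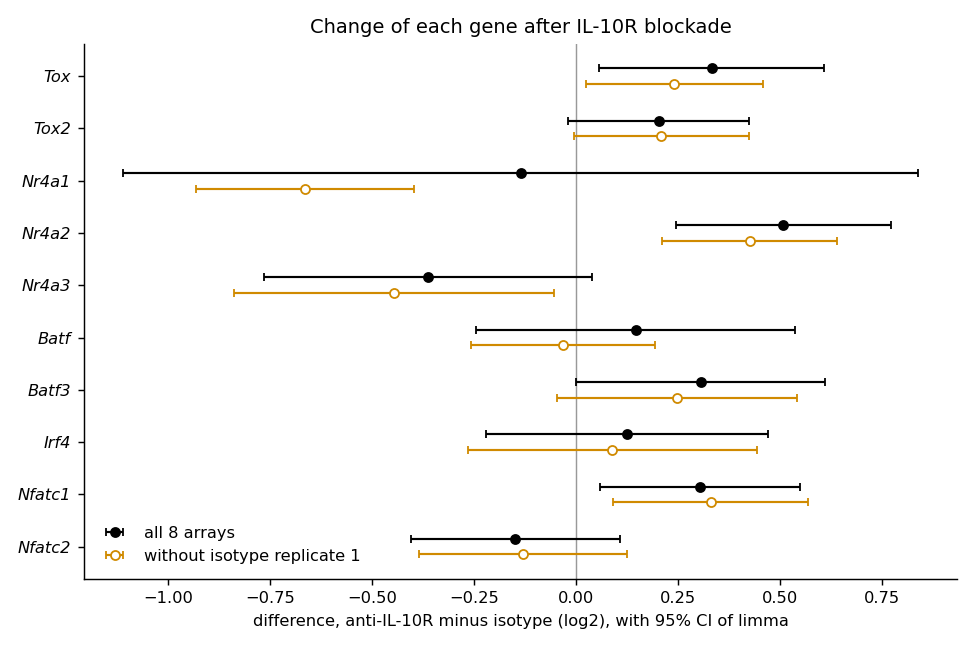
Difference between anti-IL-10R and isotype arrays for each gene on the log2 scale, with the 95% CI of the limma fit, for all 8 arrays (black) and without isotype replicate 1 (orange, open). The interval for Nr4a1 runs from −1.11 to 0.84 with all arrays and lies below 0 without isotype replicate 1. That for Nr4a3 includes 0 with all arrays and runs from −0.84 to −0.055 without that array. That for Batf3 lies just above 0 with all arrays and includes 0 without that array. Those for Nr4a2, Tox and Nfatc1 lie above 0 in both fits. None of these intervals is adjusted for the number of genes.

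Seen together, 7 of the 10 genes had a higher mean in the anti-IL-10R group, with a median difference of 0.17, against 54.7% of all tested genes and a median of 0.028. Without isotype replicate 1 there were 6 higher with a median of 0.15, against 48.9% of all tested genes and a median of −0.0069. The genes of the sort were higher by amounts of a similar size. All 7 of these, Cd3e, Cd3d, Cd3g, Cd8a, Cd8b1, Pdcd1 and Cd44, had a higher mean in the anti-IL-10R group with a median difference of 0.27, and 5 did not overlap between the groups, as 9.32% of all tested genes did in this direction, though none of the 7 passed the threshold. Their mean level was 11.22 to 11.26 on the anti-IL-10R arrays, against 10.74 on isotype replicate 1 and 11.02 to 11.08 on the other isotype arrays. Without isotype replicate 1 all 7 were still higher, with a median difference of 0.22. The part of this shift in the differences of Tox, Tox2, Nfatc1 and Nr4a2 was not tested. In bulk RNA of sorted cells, fewer cells with a transcript and less of it per cell cannot be told apart.

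**Figure D3:**
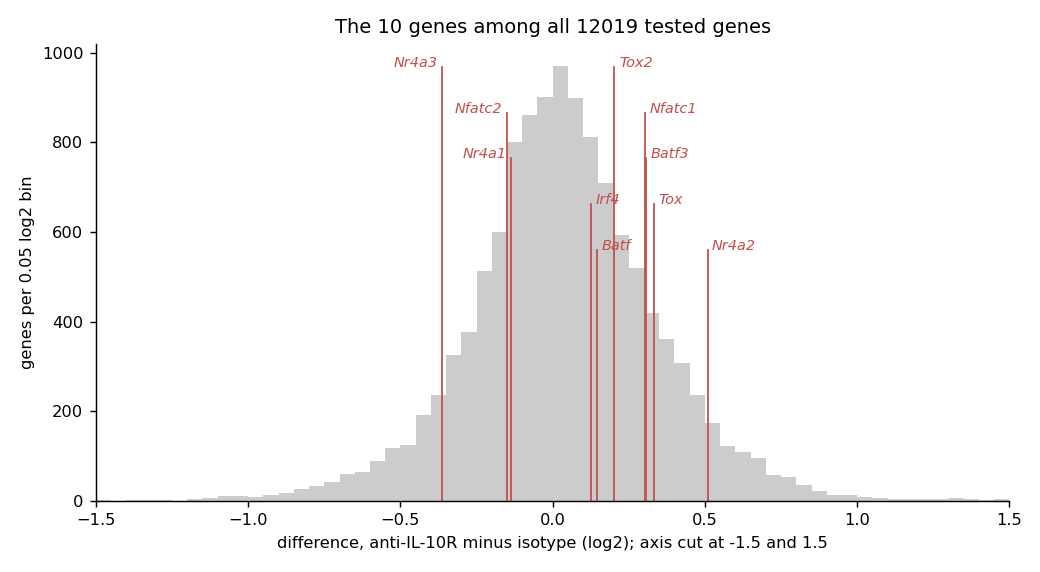
Histogram of the differences (anti-IL-10R minus isotype, log2) of all 12019 tested genes in bins of 0.05, with a red line at each of the 10 genes; line heights only separate the names. Of the 10 genes, Nr4a2 at 0.51 and Nr4a3 at −0.36 lie farthest to either side. Of all tested genes, 94.1% had a difference no greater than that of Nr4a2, and 8.42% were as low as Nr4a3 or lower.

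Markers of other cell types were read beside these values, because B cells and dendritic cells also use IRF4, NFATC1 and BATF3. All 9 measured B cell genes had a lower mean in the anti-IL-10R group, and none passed the threshold without a filter on dim genes. The mean level of the list was 4.83 to 5.05 on the anti-IL-10R arrays, against 4.91 to 5.41 on the isotype arrays. Of these genes 6, Pax5 among them, had means below the limit for dim genes. The 5 dendritic cell genes had a mean of 5.29 to 5.46 on the anti-IL-10R arrays, against 5.34 to 5.53 on the isotype arrays, and no member passed. No gene of the natural killer, myeloid, CD4 T cell, red cell or naive T cell lists passed either, but isotype replicate 1 was the highest of all 8 arrays in the mean of the first 4 of these lists. The myeloid mean was 5.12 to 5.23 on the anti-IL-10R arrays, against 5.74 on isotype replicate 1 and 4.81 to 5.11 on the other isotype arrays. The natural killer mean was 4.60 to 4.75 on the anti-IL-10R arrays, against 5.10 on isotype replicate 1 and 4.50 to 4.55 on the others of its group. For the CD4 T cell list, Foxp3 included, the mean was 5.08 to 5.38 on the anti-IL-10R arrays, against 5.94 on isotype replicate 1 and 5.15 to 5.33 on the others. The red cell mean was 5.11 to 5.50 on the anti-IL-10R arrays, against 5.61 on that array and 5.03 to 5.19 on the others. The naive T cell mean was 5.88 to 6.36 on the anti-IL-10R arrays, against 6.05 to 6.32 on the isotype arrays. The part of these markers in the differences of the 10 genes was not tested. A fit with the B cell mean as a covariate was run, but this mean itself differed between the groups. The fit therefore cannot tell the part of the markers from that of the treatment. In that fit none of the 10 passed, and only 1 of all tested genes did. Nr4a2 was 0.48, Tox 0.33, Tox2 0.14 and Irf4 0.12, each nearer 0 than without the covariate, if only slightly for Tox and Irf4. Nr4a3 at −0.16, Nfatc2 at −0.020 and Batf at 0.073 were nearer 0 too. Nfatc1 at 0.34 and Batf3 at 0.39 were farther from 0, and Nr4a1 changed sign to 0.035.

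Upstream of NFAT, 11 of 15 tested genes of calcium and calcineurin signalling had a higher mean after blockade, with a median difference of 0.21, and 2 passed the threshold, both higher, against 1.23% of all tested genes. The calls of Itpr2, Itpr3, Jade3, Entpd1, Lef1, Maf and Nrros, given here and below, were each lost when any single array other than isotype replicate 1 was left out (limma adjusted p 0.0518 to 0.141), except that Itpr2 kept its call without isotype replicate 3. Without isotype replicate 1 the median was 0.060 and the same number passed, again higher, against 3.35% of all tested genes. Itpr2, a channel that releases calcium from internal stores, read 9.25, 9.26, 9.53 and 9.45 on the anti-IL-10R arrays, against 8.42, 8.65, 8.82 and 8.56 on the isotype arrays. The groups were well apart, and Itpr2 rose by 0.76 ± 0.12 (SE, limma adjusted p = 0.0236). Its relative Itpr3 rose by 0.71 ± 0.15 (adjusted p = 0.0471), but the gene has 2 rows, and their mean gave 0.34 without a call (adjusted p = 0.215). Plcg1, the phospholipase that makes the signal opening these channels, differed by 0.39 ± 0.11 (adjusted p = 0.0923) with groups that did not overlap, and was named after seeing its value. The calcineurin catalytic subunits Ppp3ca, Ppp3cb and Ppp3cc, named likewise, differed by 0.21 ± 0.13, −0.10 ± 0.13 and 0.28 ± 0.12. Rcan1, a calcineurin inhibitor that NFAT itself induces, differed by −0.16 ± 0.11.

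Relatives of the 10 genes and AP-1 proteins did not pass the threshold. Nfat5, the form that responds to osmotic stress and not to calcineurin, differed most of the 5 tested relatives, with 8.69, 8.54, 9.01 and 8.86 on the anti-IL-10R arrays, against 8.62, 8.23, 8.07 and 8.43 on the isotype arrays. Its difference was 0.43 ± 0.15 (SE, adjusted p = 0.158), and 0.53 without isotype replicate 1, where it passed (adjusted p = 0.0438). Tox4 and Irf8 differed by −0.15 ± 0.13 and −0.10 ± 0.12. Of the 7 tested AP-1 proteins and competitors 3 were higher and 4 lower in mean, with a median of −0.073. Bach2, which competes with AP-1 for DNA sites, differed by 0.31 ± 0.13 (adjusted p = 0.213) with groups that did not overlap, and Junb and Fos by −0.19 ± 0.12 and −0.33 ± 0.24.

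The HBO1 histone acetyltransferase complex, which TOX has been found to bind, had 5 tested members with a higher and 5 with a lower mean, and 1 passed as lower, against 1.3% of all tested genes. That gene was Jade3, a scaffold subunit, which read 6.40, 6.92, 6.68 and 6.30 on the anti-IL-10R arrays, against 7.48, 7.20, 7.10 and 7.46 on the isotype arrays. It fell by 0.73 ± 0.16 (SE, limma adjusted p = 0.0491), and by 0.68 without isotype replicate 1 (adjusted p = 0.0329). The catalytic subunit Kat7 differed by −0.010 ± 0.15.

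The next list held surface proteins whose genes TOX, NR4A or NFAT proteins are known to raise in exhausted T cells. Of the 9 tested, 7 had a higher mean, as 54.7% of all tested genes did. The median difference was 0.50, or 0.30 without isotype replicate 1, against 0.028 and −0.0069 for all tested genes. Both list medians are the values of Pdcd1, the gene of the PD-1 protein on which the cells were sorted. Only Entpd1, the ectoenzyme CD39, passed with all arrays, at 0.55 ± 0.11 (SE, adjusted p = 0.0371), where 1.23% of all tested genes passed as higher. Without isotype replicate 1, 3 passed, all higher, against 3.35% of all tested genes. Beside Entpd1 these were Havcr2, which encodes the inhibitory receptor TIM-3, at 0.47, and Cd244a, a receptor of the SLAM family, at 1.08 in that fit (adjusted p = 0.0219 and 0.0110). Cd244a read 10.11, 9.51, 10.21 and 9.80 on the anti-IL-10R arrays, against 6.94, 9.01, 8.54 and 8.94 on the isotype arrays. With all arrays its groups did not overlap, and its difference was 1.55 ± 0.41 (SE, adjusted p = 0.0783).

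Of 8 tested other transcription factors of CD8 T cell fate, Maf rose by 1.45 ± 0.30 and Lef1, a factor of naive and memory T cells, fell by 0.98 ± 0.17 (adjusted p = 0.0408 and 0.0291). The median of these 8 was 0.26, and 6 were higher in mean. With all arrays 1.23% of all tested genes passed as higher and 1.3% as lower. Maf, which has 2 rows, read 7.07 on isotype replicate 1, against 8.25 to 8.55 on the other isotype arrays. Without isotype replicate 1, Maf rose by 1.12 and Lef1 fell by 1.07. Leaving out isotype replicate 1, 3 passed as higher and 2 as lower, against 3.35% and 5.9% of all tested genes in that fit. The higher ones were Maf, Ikzf2, which encodes Helios, at 0.52, and Id2, an inhibitor of E proteins, at 0.39. Beside Lef1, Myb, a factor of precursor cells, fell by 0.73 in that fit, with 6.78 on isotype replicate 1, against 8.23 to 8.57 on the other isotype arrays. Myb read 7.48 to 7.90 on the anti-IL-10R arrays, between isotype replicate 1 and the rest, as Nr4a1 did.

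**Figure D4:**
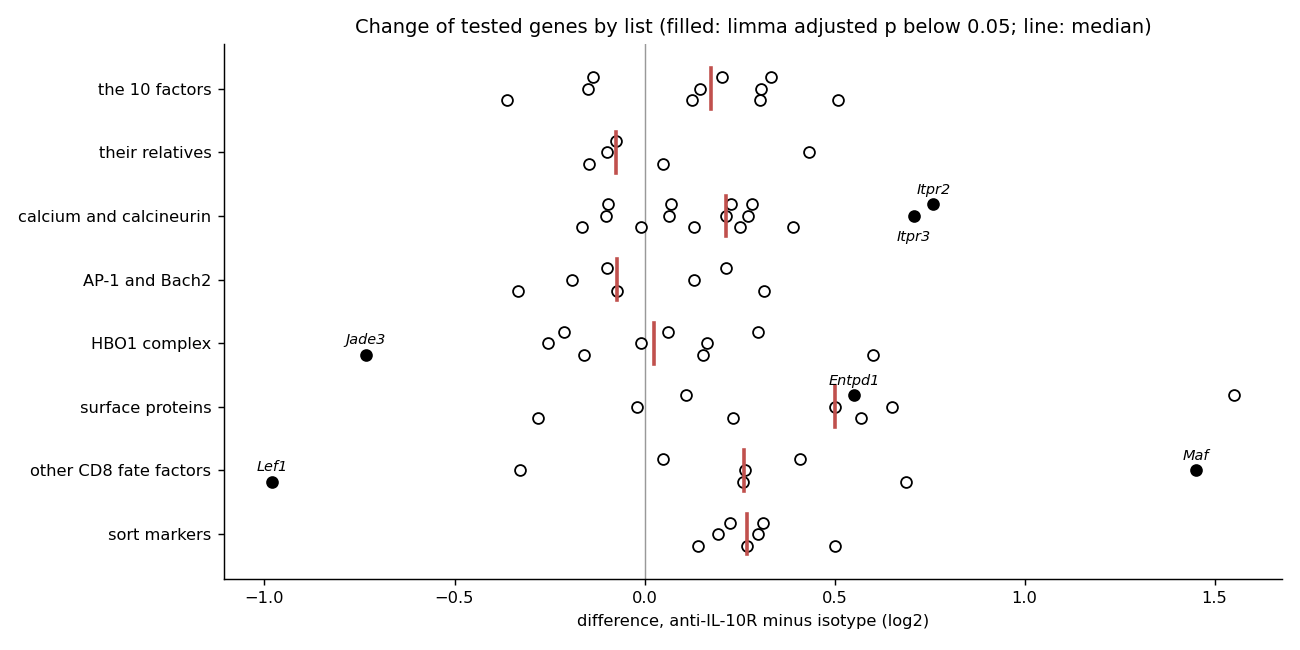
Difference (anti-IL-10R minus isotype, log2) of each tested gene, by list; filled points passed the limma threshold with all arrays, open points did not, red lines are list medians, and vertical shifts within a list only separate points. None of the 10 factors is filled, while Itpr2, Itpr3, Jade3, Entpd1, Lef1 and Maf are, and the 7 sort markers lie at 0.14 to 0.50.

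The genes whose levels followed Nr4a2 most closely over the 8 arrays were Cd96, Il27ra and Nrros, by the root mean square distance between profiles centred on each gene's mean. These distances were 0.063, 0.064 and 0.065 on the log2 scale, against a median of 0.336 for all tested genes. Cd96, a surface receptor of T and natural killer cells, had a mean of 10.69 on the anti-IL-10R arrays, against 10.15 on the isotype arrays (difference 0.54 ± 0.14, adjusted p = 0.0727). Il27ra, a chain of the receptor for the cytokine IL-27, averaged 10.79 after blockade and 10.24 with isotype (0.55 ± 0.13, adjusted p = 0.0570). Nrros, which encodes a leucine-rich repeat protein that holds latent TGF-beta, averaged 7.79 after blockade and 7.24 with isotype and rose by 0.55 ± 0.12 (adjusted p = 0.0447). These genes were picked as the nearest profiles over both groups. Small distances and group differences like that of Nr4a2 therefore follow from the choice. They share the low value of isotype replicate 1 with Nr4a2, and the likeness is a description of these 8 arrays.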

How the data were processed

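Per the labels' protocols, sorted-cell RNA (RNeasy Micro Kit) was amplified and biotin-labelled with the WT Pico kit, and each sample was hybridised to its own GeneChip Mouse Gene 2.0 ST array. The deposited table holds a log2 signal for each transcript cluster and array, spanning 1.57 to 13.89, and the medians of the arrays were 5.19 to 5.31. The submitters' processing notes name Affymetrix Power Tools; which version, summary method and scaling between arrays the authors chose is not given in the sources used here. That the deposited values are log2 was inferred from their range. No scanner files were used here, detection per probe was not assessed, and the levels of different genes cannot be compared, since their probes differ. Precision is limited by there being 8 arrays.

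Of 41345 rows, 23521 had exactly 1 symbol in the platform annotation, 1814 several and 16010 no entry. The brightest row of each gene was kept, and genes with a mean over all arrays of at least 5.24 (the middle value of all row means) were tested (12019 genes). Differences are anti-IL-10R minus isotype from a limma fit (version 3.58.1, R 4.3.3, moderated variances, 9.59 total degrees of freedom), two-sided, with Benjamini-Hochberg adjustment over all tested genes.

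The 10 genes, the lists beside them and the tests were chosen with earlier results of these data known. Text names all 10 genes, the members of each list past the threshold or otherwise the 3 with the smallest p, and the 3 genes nearest in profile to the member with the smallest p; other genes, among them Foxp3, Plcg1, Rcan1, Kat7 and single marker genes, were named with their values known. Of the list genes, Tcf7, Zeb2, Cd38, Fosl1 and some calcium and marker genes were not analysed here. Alternatives covered the filter, normalization, rows per gene, variance model, array weights, test, threshold, replicate number as a block, B cell mean as covariate and each array left out; the tests between relatives and 3 further fits (array weights without isotype replicate 1, a block on replicate numbers 2 to 4, and the Foxp3 level as a covariate) were added after seeing the data. No pairing by replicate number is stated in the labels. Deviations from the group means of same-numbered arrays correlated at −0.16 to 0.12. These means include isotype replicate 1, so the correlations cannot decide whether the arrays were paired.

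For the 10 genes, windows on a chromosome left out of the search were not read, so a gene without a window here may still have one in RefSeq. Tox is a different case, since the set of windows used here held none for it. Promoter windows of RefSeq (GRCm38.p6) were read for 8 of the 10 genes, all but Tox and Nfatc1. They were searched on both strands for 13 motifs, and the share of all windows holding each was 20.8% for the CRE half-site TGACG, 61.3% for the NFAT core GGAAA, 7.81% for the AP-1 site TGANTCA, 1.51% for the NR4A site AAAGGTCA, 1.79% for the full CRE TGACGTCA, 21.4% for the longer NFAT site TGGAAA, 20.7% for an NF-kappaB site and 0.612% for the EGR site GCGTGGGCG. It was 3.69% for a MEF2 site, 3.44% for an interferon response site, 8.30% for the STAT site TTCNNNGAA, 35.7% for the GC box GGGCGG and 13.6% for the TATA box TATAAA. The full CRE contains its half-site, and the longer NFAT site contains the core.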

Additional observations from a re-analysis of the deposited data

Results flagged for a closer look

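Among the 25 named genes, 50 sets of 4 arrays were examined for an array far from the 3 others by Dixon's criterion, which flags about 1 set in 20 by chance; 4 sets met it. Nr4a1 read 7.11 on isotype replicate 1, against 9.12 to 9.38 on the other isotype arrays. Nrros read 6.98 on the same array, against 7.31 to 7.36 on the others of its group. Tox read 11.13 on anti-IL-10R replicate 2, against 11.31 to 11.34 on the others of its group. Irf8, which has 2 rows, read 9.31 on anti-IL-10R replicate 1, against 8.91 to 8.97 on the others of its group.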

How the results depend on the processing

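With all arrays 304 of all tested genes and 0 of the 10 factors passed. The count over all genes was 145 without a filter, 460 with a stricter one (means of at least 6.97), 604 after quantile normalization, 89 after median centring, 1469 with array weights, 26 (and 0 of the 10 factors) by the unmoderated Welch test, 896 at an adjusted p below 0.10 and 3 below 0.01, and 1 with the B cell mean as a covariate. With the replicate block it was 4, and 0 of the 10 factors passed. Whether the numbers pair the arrays is not known. With 1 array left out it was 3 to 1112. Of the 10 factors, Nr4a2 passed with the stricter filter, quantile normalization, the trended and robust variance model and at 0.10 (1 each). With array weights 2 passed, Nr4a2 and Nfatc1. With 1 array left out, 0 to 2 passed, the 2 being Nr4a2 and Nr4a1 without isotype replicate 1. In 3 fits added after seeing the data, array weights without isotype replicate 1 gave 1462 genes, the replicate block on numbers 2 to 4 gave 503 and the Foxp3 level as a covariate 1183. Among the factors 2 passed with these weights and with the Foxp3 covariate, Nr4a2 (0.45 and 0.39, adjusted p = 0.0184 and 0.0498) and Nr4a1 (−0.68 and −0.89, adjusted p = 0.00742 and 0.0447), and 0 passed with that block, where Nr4a2 was 0.45 and Nr4a1 −0.65 (adjusted p = 0.0889 and 0.0573). Foxp3 read 7.97 on isotype replicate 1 and 5.08 to 5.95 on the other arrays, so its covariate acts much like leaving that array out. The 3 added fits are therefore not separate from that exclusion. Over all alternatives Nr4a2 lay between 0.39 and 0.57. Nr4a1 was 0.035 with the B cell mean as a covariate and −0.67 to 0.094 with 1 array left out, and Batf was −0.032 to 0.23 with 1 array left out, −0.042 with the block on numbers 2 to 4 and −0.14 with the Foxp3 covariate. The change of Nr4a1 minus that of Nr4a3 was 0.23 with all arrays and −0.22 without isotype replicate 1. Of 228 values of the 10 factors under 23 alternatives, 209 kept direction and side of the threshold, 12 newly passed and 7 changed sign. Itpr2, Itpr3, Jade3, Entpd1, Lef1, Maf and Nrros each kept their direction under every alternative run and lost the call under several, the replicate block among them. Where a call moved, the cause was not tested, except that the filters change how many genes share the adjustment.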
